A study of Mus musculus with 4 samples.

Results

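Expression of 36 cell cycle genes was followed in 4 lineages of mouse liver nonparenchymal cells after repeated carbon tetrachloride (CCl4) injury. The members were chosen by name, as 16 genes of DNA synthesis (S phase) and 20 genes of mitosis, with earlier results of these data known, and all 36 were present in each of the 4 libraries, among 25149 genes seen in any library. The S-phase members were Mcm2 to Mcm7, Pcna, Rrm1, Rrm2, Tyms, Uhrf1, Hells, Gins2, Cdc6, Ccne1 and Ccne2. The mitotic members were Mki67, Top2a, Cenpf, Cenpe, Birc5, Ccna2, Ccnb1, Ccnb2, Cdk1, Cdc20, Plk1, Aurka, Aurkb, Bub1, Bub1b, Kif11, Kif23, Tpx2, Ube2c and Nusap1.

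A cell that divides first copies its DNA and then separates the copies, and each step has its own transcripts. As cells enter S phase, E2F transcription factors switch on genes for the replicative helicase, the sliding clamp and nucleotide supply. The mitotic genes, which encode cyclins, kinases, spindle motors and chromosome proteins, are held down in resting cells through a promoter element named CHR, depend on CCAAT boxes for activation and rise later, in G2 and M. Most liver sinusoidal endothelial cells, hepatic stellate cells and Kupffer cells, the resident macrophages, rest in the healthy liver and can divide after injury, while blood monocytes divide mainly in the bone marrow before they enter the tissue.

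The animals were male wild-type mice of 8 to 10 weeks. The injured mice received CCl4 diluted 1:9 in corn oil by intraperitoneal injection at 10 µl per g of body weight, 2 times each week over 5 weeks, with the tissue taken 48 h after the final dose; control mice received corn oil alone. The liver was digested by perfusion of pronase and collagenase, a slow spin (50 × g) took out the hepatocytes, and single nonparenchymal cells were captured on the BD Rhapsody system, which counts transcripts by unique molecular identifiers (UMIs). Each group held 2 mice with 1 library each, so a p-value within a gate measures the spread between 2 mice per group. In comparisons between gates it measures the spread left after a term for each mouse, shared over the 4 gates. The labels put the 4 libraries in 1 batch, but the file headers show that the table of the library CCl4 1 was made in a pipeline run of its own.

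The libraries held 5948 to 7663 cells and 45408857 to 55529871 UMIs each, and 25861 of 27091 cells had at least 200 genes and at most 25% mitochondrial UMIs. Median depth per kept cell was 5325 and 4441 UMIs in corn oil and 6793 and 6036 in CCl4, and any pair of libraries shared 42 to 70 cell barcodes. Cells were assigned by marker UMIs: endothelial with at least 5 UMIs of Kdr, Ptprb and Egfl7 together, stellate with at least 5 of Reln, Colec11 and Lrat, Kupffer with at least 5 of Clec4f, and monocyte with at least 3 of Chil3, F13a1 and Vcan and at most 2 of Clec4f. A total of 20685 cells passed 1 gate, 2345 passed 2 or more and were kept apart, and 2831 passed none. The endothelial gate held 5287 and 5370 cells in the corn oil libraries 1 and 2, then 3085 and 2795 in the CCl4 libraries 1 and 2, and all values below keep this order. The stellate gate held 179, 145, 462 and 144 cells, the Kupffer gate 217, 222, 228 and 225, and the monocyte gate 43, 23, 911 and 1349. Counts were summed per gate and library, and levels are given as counts per 1000000 UMIs of that sum (CPM).

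The promoters of 4 genes are shown because their genes carry the results: Mcm5 and Mcm6, S-phase members that rose in Kupffer cells, and Mki67 and Top2a, mitotic members that were lower in several gates. The 250 bases before each transcription start are given 5′ to 3′ on the gene's strand, from RefSeq on GRCm38.p6, at chr8:75109259-75109508 (plus strand) for Mcm5, chr1:128359706-128359955 (minus) for Mcm6, chr7:135716380-135716629 (minus) for Mki67 and chr11:99024190-99024439 (minus) for Top2a. Capitals mark E2F words in Mcm5 and Mcm6 and CHR words in Mki67 and Top2a, on either strand.
Mcm5: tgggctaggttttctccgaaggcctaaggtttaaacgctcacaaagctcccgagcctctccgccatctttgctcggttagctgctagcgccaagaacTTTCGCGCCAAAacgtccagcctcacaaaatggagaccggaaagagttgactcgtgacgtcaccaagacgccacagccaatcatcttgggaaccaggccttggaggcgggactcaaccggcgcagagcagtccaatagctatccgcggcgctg
Mcm6: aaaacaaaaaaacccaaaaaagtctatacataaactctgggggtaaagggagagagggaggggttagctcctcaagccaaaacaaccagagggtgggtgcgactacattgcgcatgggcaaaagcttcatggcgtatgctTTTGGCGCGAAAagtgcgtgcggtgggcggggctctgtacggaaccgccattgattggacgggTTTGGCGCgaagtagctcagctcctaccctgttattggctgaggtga
Mki67: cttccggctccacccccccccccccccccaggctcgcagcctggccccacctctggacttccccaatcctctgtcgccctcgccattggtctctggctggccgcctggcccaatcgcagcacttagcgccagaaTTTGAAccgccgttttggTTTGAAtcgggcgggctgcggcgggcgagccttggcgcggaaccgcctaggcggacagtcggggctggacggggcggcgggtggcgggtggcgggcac
Top2a: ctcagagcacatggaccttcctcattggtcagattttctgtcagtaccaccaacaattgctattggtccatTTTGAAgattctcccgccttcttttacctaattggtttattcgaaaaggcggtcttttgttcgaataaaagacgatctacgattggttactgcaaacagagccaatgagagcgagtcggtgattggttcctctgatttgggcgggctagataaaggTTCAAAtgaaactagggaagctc
The E2F words searched were TTTCCCGC, TTTGGCGC, TTTCGCGC and TTTGCCGC, the CHR word was TTTGAA and the CCAAT word was CCAAT, each on both strands and with overlapping matches counted. Distances here count the bases between the end of a word and the start site. In Mcm5, 2 overlapping E2F words lay 145 and 141 bases before the start site. In Mcm6 an overlapping pair lay 102 and 98 bases before it and another word 39 bases before it. Mki67 held CHR words 110 and 92 bases before its start, and Top2a held them 173 and 17 bases before it, the latter on the other strand.

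Promoters were matched for 30 of the 36 members, 13 S-phase and 17 mitotic, with none used here for Ccna2, Aurkb, Tpx2, Mcm4, Gins2 and Ccne2. An E2F word was present in 5 of 13 S-phase promoters (38.5%; Mcm5, Mcm6, Mcm7, Hells and Cdc6) and in 1 of 17 mitotic promoters (5.88%; Cdk1), beside 1.91% of 27025 promoters of the same length. The CHR word was present in 1 of 13 S-phase promoters (7.69%; Mcm2) and 7 of 17 mitotic ones (41.2%; Ccnb2, Cdc20, Cdk1, Kif11, Mki67, Top2a and Ube2c), beside 16.3% of all. A CCAAT word was found in 69.2% of the S-phase, 88.2% of the mitotic and 34.5% of all promoters. Cdk1 was thus a mitotic member with both an E2F and a CHR word. These matches describe letters in a window and do not show binding.

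Summed over the members, the S-phase and mitotic sets differed in their response and did so by gate. The S-phase sum of the Kupffer gate was 282, 199, 500 and 851 CPM, a mean of 240 ± 58.3 (SD, n = 2) in corn oil and 676 ± 248 in CCl4, 2.81-fold higher with no overlap between the groups. The mitotic sum of the endothelial gate was 198, 148, 84.7 and 48.7, a mean of 173 ± 35.5 in corn oil and 66.7 ± 25.5 in CCl4, 2.60-fold lower with no overlap. The other sum of each of these gates overlapped: the Kupffer mitotic sum was 235, 317, 191 and 324, and the endothelial S-phase sum was 341, 269, 293 and 290. So within Kupffer cells the S-phase genes were the set that differed, and within endothelial cells the mitotic genes were. In the stellate gate the mitotic sum was 454, 273, 113 and 160, lower in both CCl4 libraries, and the S-phase sum was close in all 4 libraries at 233, 229, 213 and 214 (log2 ratio -0.12). The monocyte gate had the highest sums in corn oil, with 678 and 851 for S phase against 205 and 197 in CCl4, and 466 and 592 for mitosis against 32.0 and 68.8. These corn oil monocyte sums came from 43 and 23 cells. A gate's sum alone cannot tell fewer transcribing cells from less RNA per cell, and counts of cells are given with each gate below.

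**Figure D1:**
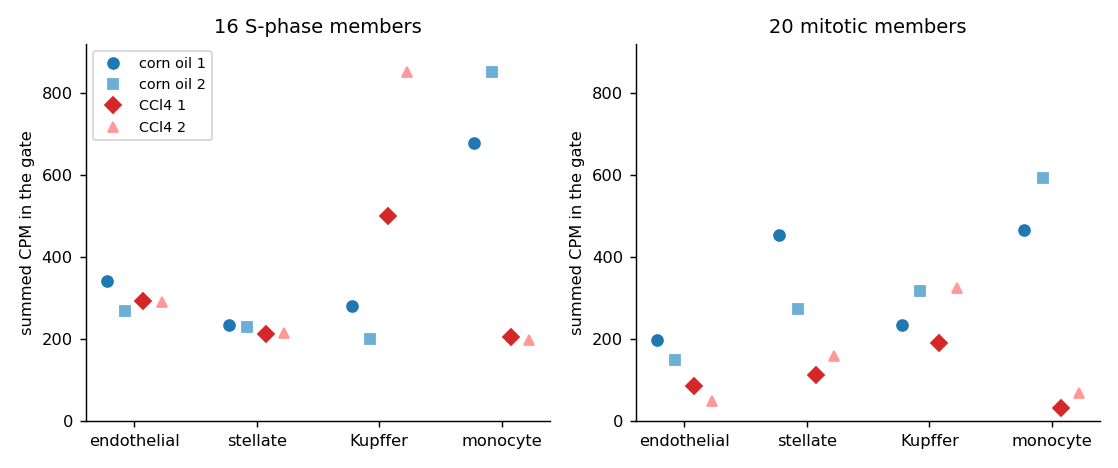
Summed CPM of the 16 S-phase members (left) and the 20 mitotic members (right) in each gate, on linear axes, with 1 point per library. The CCl4 points lie above the corn oil points for S phase in the Kupffer gate (500 and 851 against 282 and 199) and below them for mitosis in the endothelial gate (84.7 and 48.7 against 198 and 148).

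In Kupffer cells, CCl4 came with higher levels of the helicase and chromatin genes of S phase. Of the 16 S-phase members, 14 passed the filter on low counts, 9 were called higher and 0 lower at an adjusted p under 0.05 (edgeR's quasi-likelihood test with Benjamini-Hochberg adjustment over 9918 genes), while 7.55% of all genes tested were called higher and 15.3% in either direction. The groups did not overlap, with CCl4 higher, for 12 of the tested S-phase members and for 33.6% of all genes. With no filter, when every member was tested, 9 were called too. Ccne1 and Ccne2, the cyclins E that open S phase, fell under the filter, with levels of 0.90 to 5.05 CPM.

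The subunits of the MCM2 to MCM7 helicase ring, which unwinds DNA at replication forks, were all 6 among the 9. Mcm5 (chr8:75109569-75128439, plus strand, GRCm38) stood at 18.0, 10.3, 62.0 and 128 CPM, a log2 ratio of 2.65 (SE 0.37, adjusted p = 0.00287). Mcm6 was at 20.2, 11.4, 58.8 and 92.7 (log2 ratio 2.17, SE 0.30, adjusted p = 0.00274), and Mcm4 at 18.0, 11.4, 53.1 and 86.7 (2.16, SE 0.30, adjusted p = 0.00274). For these subunits both CCl4 libraries lay above both corn oil libraries, and CCl4 2 lay above CCl4 1. The log2 ratios of Mcm2, Mcm3 and Mcm7 were 2.13, 1.58 and 1.41. Mcm7 shares its locus with Cops6 and Ap4m1 on the other strand, and since the strand used in counting is not given, their reads cannot be told apart.

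Larger ratios belonged to a pair of genes that act on chromatin at the fork. Hells, a chromatin remodeller of the SNF2 family needed for DNA methylation, was at 1.8, 4.90, 13.7 and 35.0 CPM, with a log2 ratio of 2.83 (SE 0.59, adjusted p = 0.0143). Uhrf1, which brings the maintenance DNA methyltransferase to newly copied DNA, was at 4.95, 3.26, 14.4 and 42.9 (2.70, SE 0.57, adjusted p = 0.0150). Pcna, the sliding clamp, had the smallest called ratio, with 116, 82.2, 147 and 194 (0.71, SE 0.19, adjusted p = 0.0364). Not every S-phase member moved: Rrm1 and Rrm2, the subunits of ribonucleotide reductase, overlapped between groups, with 27.9, 18.5, 22.1 and 48.3 for Rrm1 and 5.40, 6.53, 2.24 and 14.8 for Rrm2.

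**Figure D2:**
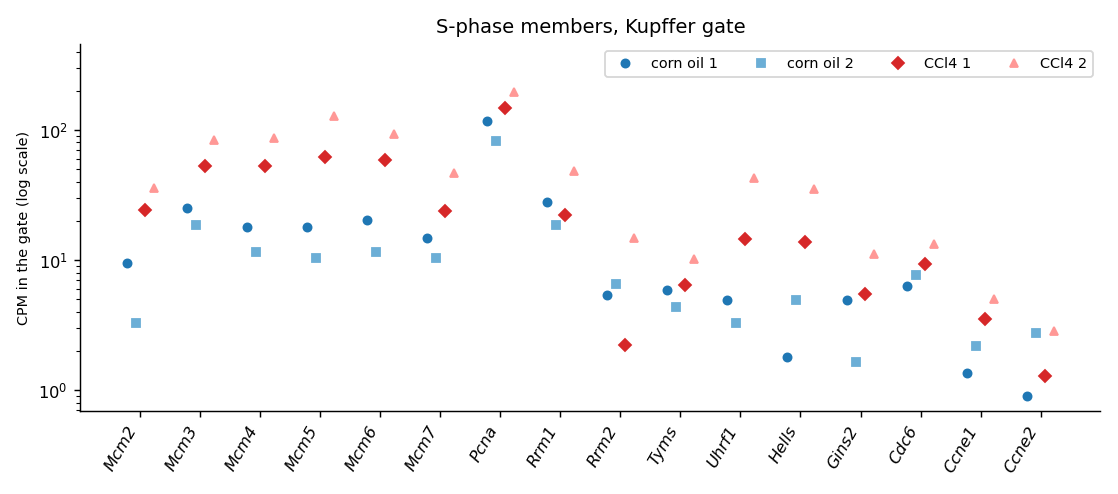
CPM in the Kupffer gate for each of the 16 S-phase members on a log scale, 1 point per library. Both CCl4 points lie above both corn oil points for the 6 Mcm genes, Uhrf1 and Hells (Mcm5 62.0 and 128 against 18.0 and 10.3), while Rrm1, Rrm2 and Ccne2 overlap.

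The library CCl4 2 carried part of this. Without it, 4 S-phase members were called in place of 9 and the log2 ratio of the S-phase sum was 1.06 in place of 1.49. Hells, Uhrf1 and Pcna then had adjusted p of 0.0937, 0.0825 and 0.235. Without corn oil 2 Pcna also missed the threshold (adjusted p = 0.0966) with 8 members called, and without CCl4 1 or corn oil 1 the count stayed at 9.

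Of the 20 mitotic members, 14 could be tested in Kupffer cells and 0 were called by edgeR, with 3 at an unadjusted p under 0.05, and 0 by DESeq2. Mki67, the proliferation marker Ki-67 that coats mitotic chromosomes, was at 37.8, 56.0, 15.7 and 49.2 CPM (log2 ratio -0.60, SE 0.43, adjusted p = 0.380). Top2a, the topoisomerase that untangles DNA before chromosomes part, was at 31.0, 32.1, 17.6 and 64.3 (0.30, SE 0.47, adjusted p = 0.702). The CCl4 libraries thus lay on opposite sides of the corn oil libraries for Top2a. Mitotic calls turned on these libraries: without CCl4 2, Mki67 was lower (-1.61, adjusted p = 0.0327), and without CCl4 1, Top2a was higher (0.95, adjusted p = 0.0472). The 6 mitotic members that were not tested were Ccnb2, Cdc20, Plk1, Aurka, Bub1 and Bub1b, with 0.45 to 8.71 CPM.

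The S-phase signal was also measured with the cells richest in mitotic transcripts left out. Kupffer cells with at least 5 mitotic UMIs numbered 10, 14, 24 and 44 and held 79.2%, 78.7%, 64.3% and 77.1% of the gate's mitotic UMIs. In the remaining Kupffer cells the S-phase sum was 217, 156, 394 and 503 CPM, still without overlap between the groups. In the 136, 134, 93 and 65 Kupffer cells with no mitotic UMI it was 223, 155, 306 and 305, again without overlap and with a smaller difference. Cells with at least 3 UMIs of both sets numbered 14, 13, 48 and 72. Depth moved with the group here, since the median Kupffer cell had 8689, 7502, 13570.5 and 14622 UMIs. The share of Kupffer cells with at least 3 S-phase UMIs was 37.3%, 18.9%, 64.9% and 70.2%, and after each cell was thinned to 2000 UMIs it was 5.07%, 0.917%, 8.33% and 19.6%, both without overlap. With all gates set per 5000 UMIs of a cell, chosen after seeing the data, 7 S-phase members were called in Kupffer cells. The share with at least 3 mitotic UMIs was 9.22%, 11.7%, 21.9% and 36% before thinning and 2.76%, 5.50%, 1.75% and 4.0% after it, so the rise before thinning was not there at equal depth.

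As a background for these shares, plasmacytoid dendritic cells, a type that leaves the cycle before it reaches tissue, were gated by Siglech, Klk1 and Ccr9 (100, 60, 124 and 99 cells of 4048.5, 3347.5, 4631 and 4619 median UMIs). Their thinned share was 2.00%, 1.67%, 0.806% and 1.01% for S phase and 0%, 1.67%, 0% and 2.02% for mitosis. The mitotic values give no clean background, since the 1 cell of corn oil 2 with at least 5 mitotic UMIs held T and NK cell markers at 29951 CPM against 413 in the others, and the 2 such cells of CCl4 2 held 2688 against 172. The Kupffer S-phase share of corn oil 2 lay within the S-phase range of the plasmacytoid dendritic cells. That of corn oil 1 and both CCl4 shares lay above it. A neutrophil gate (at least 3 UMIs of Retnlg, Cxcr2 and Mmp9), also planned as a background, held only 8, 11, 19 and 8 cells. Its thinned S-phase share was 12.5%, 0%, 5.26% and 0%, a range that took in every Kupffer share but that of CCl4 2. With so few cells it sets no background.

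The Kupffer gate was checked against its markers. Its 8 Kupffer markers summed to 21753, 19688, 22249 and 21332 CPM, while Clec4f itself was at 5698, 4710, 2048 and 2623 and Marco, a scavenger receptor, at 918, 757, 7116 and 5990. Timd4, a marker of resident Kupffer cells, was at 675, 721, 646 and 569. The 8 monocyte markers summed to 5635, 7602, 6638 and 4779, mostly Lyz2, with Ly6c2 near 0, and the 10 endothelial markers to 843, 814, 529 and 565. None of these 3 sums was higher in both CCl4 libraries than in both corn oil libraries.

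Genes of the cycle outside the 36 members were read from lists of their own, beside 7.55% of all genes called higher and 7.79% called lower in this gate. In Kupffer cells 6 of 19 tested replication genes were higher and 0 lower, led by Cdca7, a partner of Hells (log2 ratio 4.36, with 1.8, 0.54, 21.4 and 33.1 CPM), Ung, which removes uracil from DNA (3.01), and Rfc4, a subunit of the clamp loader (2.26). Of 6 cyclin D and partner kinase genes 3 were higher, Cdk6 (1.11), Ccnd1 (0.96) and Cdk4 (0.89). Among 16 tested inhibitors and checkpoint genes 4 were lower and 1 higher: Cdkn1c, or p57 (-2.57), Cdkn1a, or p21 (-2.40), Btg2 (-1.32) and Cdkn1b, or p27 (-0.74) were lower, and the checkpoint kinase Chek1 was higher (3.44). Cdkn1a was at 858, 170, 97.5 and 104, so its corn oil libraries differed more from each other than corn oil 2 from CCl4. Of 22 other mitotic genes only Cks1b, a subunit that docks onto cyclin-dependent kinases, was called (1.84). Of 12 tested genes linked to growth 5 were higher, led by Ran (1.31), Lmnb1 (1.28) and Tuba1b (0.88), and of 14 tested genes of the E2F and retinoblastoma families 1 was lower, Rbl2 (-0.87).

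In endothelial cells, CCl4 came with lower mitotic transcripts and no called change in S phase. All 36 members were tested there: 6 of 20 mitotic members were called lower and 0 higher, beside 2.57% of 13388 genes called lower, and 0 of 16 S-phase members were called by edgeR, beside 5.42% of genes called in either direction (2 at an unadjusted p under 0.05; 1 was called lower by DESeq2). The groups did not overlap, with CCl4 lower, for 18 of 20 mitotic members and 21.2% of all genes. Among S-phase members this held for 4, and 1 lay higher without overlap (33.7% of all genes). The median log2 ratio was -1.65 over the mitotic members, -0.23 over the S-phase members and -0.00 over all genes tested.

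Mki67 (chr7:135689784-135716361, minus strand, GRCm38) stood at 28.1, 20.9, 7.25 and 3.22 CPM (log2 ratio -2.26, SE 0.38, adjusted p = 0.0248). Nusap1, a protein that binds spindle microtubules, had the lowest ratio, with 9.82, 7.26, 1.81 and 0.78 (-2.74, SE 0.43, adjusted p = 0.0215), though it overlaps Oip5 on the other strand. Cenpf, a kinetochore protein, was at 16, 10.7, 3.21 and 0.88 (-2.71, SE 0.54, adjusted p = 0.0406). In each of these genes both corn oil libraries were above both CCl4 libraries. Birc5, or survivin, of the chromosomal passenger complex was at 8.37, 7.90, 2.35 and 0.99 (-2.31, SE 0.42, adjusted p = 0.0307), and Ccna2, or cyclin A2, which overlaps Exosc9, was at 13.1, 10.8, 3.66 and 1.66 (-2.20, SE 0.39, adjusted p = 0.0282). The last called member, named because the count was small, was the checkpoint kinase Bub1, at 2.37, 1.66, 0.54 and 0.36 (-2.19, SE 0.46, adjusted p = 0.0448). Top2a just missed the threshold at 32.9, 23.8, 12.6 and 5.97 (-1.65, SE 0.36, adjusted p = 0.0508).

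The S-phase members showed no such difference in the same cells. Pcna was at 104, 94.6, 101 and 86.2 CPM (log2 ratio -0.14, SE 0.15, adjusted p = 0.627). Mcm5 was at 24.7, 13.1, 13.3 and 18.4 (-0.32, SE 0.31, adjusted p = 0.583), with the corn oil libraries further apart than the groups. The ratios of the set ran from -1.29 for Rrm2 (adjusted p = 0.0629) to 0.11 for Mcm2.

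The mitotic members that were not lower in both CCl4 libraries, singled out after their values were seen, were Cdk1 and Bub1b. Cdk1, the kinase that drives entry into mitosis, was at 16.5, 15.1, 23.0 and 18.0 (log2 ratio 0.32, SE 0.19, adjusted p = 0.367), the single mitotic member with a ratio above 0 and with both CCl4 values above both corn oil values, as was the case for 33.7% of all genes. Bub1b, a spindle checkpoint kinase, was at 2.63, 3.78, 2.64 and 2.80 (-0.30), with overlapping groups. Endothelial cells with at least 5 mitotic UMIs held 292 of 502 Cdk1 UMIs in corn oil 1 and 84 of 559 in CCl4 1. The same cells held 817 of 853 Mki67 UMIs in corn oil 1 and 153 of 176 in CCl4 1. As each gene also counts toward the 5 UMIs, these are descriptions.

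**Figure D3:**
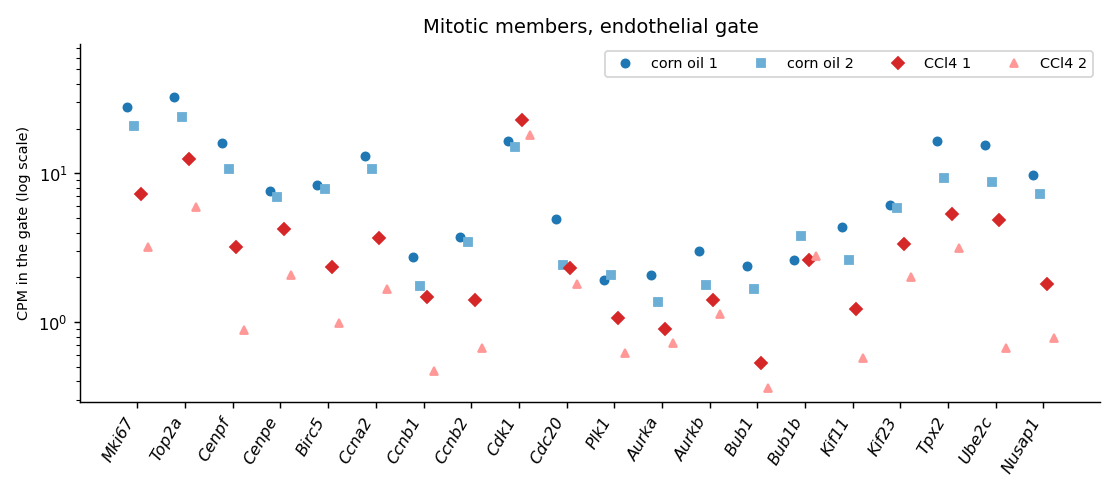
CPM in the endothelial gate for each of the 20 mitotic members on a log scale, 1 point per library. Corn oil points lie above CCl4 points for 18 members (Mki67 28.1 and 20.9 against 7.25 and 3.22). Cdk1 points lie in the opposite order, and those of Bub1b overlap.

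Few endothelial cells carried the mitotic signal. Cells with at least 5 mitotic UMIs numbered 63, 49, 17 and 17, or 1.19%, 0.912%, 0.551% and 0.608% of the gate, and held 87.6%, 83.6%, 55.1% and 32.7% of its mitotic UMIs. The same cells held 13.9%, 14.2%, 3.55% and 8.74% of the S-phase UMIs. Without them the S-phase sum was 299, 235, 286 and 269 CPM. So most S-phase UMIs of endothelial cells came from cells with fewer than 5 mitotic UMIs, in corn oil and in CCl4.

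Depth also moved with the group in the endothelial gate, with medians of 5194, 4243, 6778 and 6148 UMIs per cell. The share of cells with at least 3 mitotic UMIs was 1.87%, 1.32%, 2.07% and 1.5%, which overlapped, and after thinning to 2000 UMIs it was 1.08%, 0.861%, 0.357% and 0.286%, lower in both CCl4 libraries. For S phase the share was 23.4%, 13.3%, 34.7% and 26.2% before thinning and 3.90%, 2.17%, 2.30% and 2.04% after it.

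Markers in the endothelial cells with at least 5 mitotic UMIs were not those of the gate as a whole. Their 10 endothelial markers summed to 13468, 15778, 9523 and 8904 CPM, against 24876, 26993, 18236 and 18590 in the other endothelial cells. Monocyte markers in them summed to 674, 2495, 2404 and 2234 and Kupffer markers to 474, 609, 1115 and 1638, their median depth was 8453, 7548, 13417 and 12367 UMIs, and 11, 10, 8 and 8 of them held a UMI of the leukocyte gene Ptprc. With every Ptprc-positive cell left out, an alternative chosen after seeing the data, the log2 ratio of the mitotic sum was -1.48 in place of -1.38.

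Leaving out a library kept every mitotic call lower and moved its count: 5 members were called without CCl4 2 or without corn oil 1, 7 without CCl4 1 and 9 without corn oil 2. The log2 ratio of the sum was -1.03 without CCl4 2 and -1.83 without CCl4 1.

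Of the other cycle lists in endothelial cells, beside 2.85% of all genes called higher and 2.57% called lower, 6 of 29 tested mitotic genes were lower and 0 higher, led by Prc1, which bundles the central spindle (-2.63), Nuf2, a kinetochore subunit (-2.60), and Anln, a cytokinesis protein (-2.03). Ccnd1, the cyclin D1 gene, was the called member of the cyclin D list and was lower (-0.83), at 651, 467, 331 and 322 CPM. Single genes were higher in the others: E2f7, a repressor of the E2F family (0.82), the stress gene Gadd45a (1.15) and Cdca7 among 21 tested replication genes (1.99).

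In stellate cells the mitotic difference rested on very few cells. Of the members, 8 S-phase and 10 mitotic passed the filter on low counts. Called lower were 4 mitotic members, beside 4.91% of 8978 genes, and 0 S-phase members were called by edgeR (1 at an unadjusted p under 0.05) or by DESeq2, beside 10.2% of genes in either direction. Mki67 was at 79.0, 74.8, 3.55 and 20.5 CPM (log2 ratio -3.10, SE 0.59, adjusted p = 0.0130), and Top2a at 76.7, 54.3, 18.3 and 13.1 (-2.04, SE 0.29, adjusted p = 0.00389). Tpx2, a spindle assembly factor, was at 34.3, 26.4, 6.09 and 11.5 (-1.97, SE 0.42, adjusted p = 0.0210), and Nusap1 at 33.2, 11.7, 6.60 and 4.91 (-1.96, SE 0.52, adjusted p = 0.0482). Both corn oil libraries were above both CCl4 libraries for these genes.

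Stellate cells with at least 5 mitotic UMIs numbered 3, 1, 2 and 2, and they held 95.0%, 89.2%, 71.1% and 76.4% of the gate's mitotic UMIs. In corn oil 1, 3 cells held all 69 Mki67 UMIs, and in corn oil 2 a single cell held 46 of 51. The 10 stellate markers summed to 11678, 907, 4925 and 1104 CPM in these cells, against 39177, 42411, 23043 and 20173 in the other stellate cells. The calls thus describe these few cells and not the stellate gate at large. Without CCl4 1 no mitotic member was called (Mki67 -1.94, adjusted p = 0.0582), without CCl4 2 there was 1, without corn oil 1 there were 3 and without corn oil 2 there were 7. With the gates set per 5000 UMIs, 0 were called.

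Pcna was at 79.0, 55.7, 71.1 and 71.2 CPM in stellate cells (log2 ratio 0.03, SE 0.22, adjusted p = 0.950) and Mcm5 at 8.01, 17.6, 15.5 and 13.9 (0.21, SE 0.47, adjusted p = 0.817), both with overlapping groups. The thinned share of stellate cells with at least 3 mitotic UMIs was 1.68%, 0.709%, 0.216% and 0.694% (2.23%, 1.38%, 1.95% and 3.47% unthinned), and for S phase it was 1.12%, 4.26%, 1.08% and 2.08% (9.50%, 7.59%, 19.5% and 18.1% unthinned). Among the other lists, beside 5.29% of all genes called higher and 4.91% called lower, the tubulin gene Tubb5 (1.37), Ran (0.94) and Gadd45g (2.84) were higher. Lower were Anln (-2.07), Cks2 (-1.21), Tfdp2, an E2F partner (-2.17), Hmgb2 (-1.0) and Cdkn1b (-0.71).

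In the monocyte gate both sets were far lower in CCl4, and the corn oil values came mostly from 7 cells. Of 14 tested S-phase members 10 were called lower and of 15 tested mitotic members 5, with 0 higher, beside 3.06% of 10191 genes called lower. Rrm2 was at 58.1, 116, 0.73 and 1.52 CPM (log2 ratio -6.13, SE 0.52, adjusted p = 0.00899), Cdc6, which loads the helicase, at 24.2, 23.2, 0.91 and 0.64 (-4.98, SE 0.55, adjusted p = 0.0135), and Ccne2, which overlaps Ints8, at 16.1, 27.1, 0.91 and 0.51 (-4.89, SE 0.65, adjusted p = 0.0176). Ccna2 was at 33.9, 34.8, 0 and 1.65 (-5.23, SE 0.96, adjusted p = 0.0412) and Birc5 at 33.9, 38.7, 0.18 and 2.54 (-4.63, SE 0.87, adjusted p = 0.0424). In all 5 genes the groups were far apart.

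Of the genes followed in every gate, Top2a was at 137, 162, 4.76 and 11.3 CPM (-4.23, SE 0.43, adjusted p = 0.0123), Mki67 at 66.2, 151, 7.32 and 15.4 (-3.20, SE 0.53, adjusted p = 0.0313) and Mcm5 at 53.3, 96.7, 12.6 and 9.91 (-2.72, SE 0.36, adjusted p = 0.0174). Pcna was not called, at 148, 174, 108 and 95.0 (-0.72, SE 0.19, adjusted p = 0.0961).

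Corn oil cells of this gate with at least 5 mitotic UMIs numbered 3 of 43 and 4 of 23. They held 92.4% and 97.4% of the mitotic and 74.3% and 89.5% of the S-phase UMIs. Monocyte markers in them summed to 7573 and 16403 CPM, against 16005 and 23210 in the other corn oil cells of the gate. Kupffer markers summed to 2996 and 3523, against 2159 and 3079. A Ptprc UMI was found in 2 of the 3 and 2 of the 4 cells, against 32 of 40 and 19 of 19 of the others. The lineage of these cells was not tested. Without such cells the S-phase sums were 207, 116, 205 and 190 CPM, so the S-phase difference between the groups was not seen in the rest of the gate. In CCl4 the numbers of such cells were 0 and 5, and the 5 carried neutrophil markers at 25788 CPM, against 527 in the other cells of that gate.

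The corn oil cells of this gate also differed from the CCl4 cells in markers. Ccr2, a receptor of inflammatory monocytes, was at 510, 383, 1821 and 2569 CPM and Ly6c2 at 53, 43, 596 and 827. Cd5l, a Kupffer gene, was at 907, 1431, 30 and 9, and the Kupffer markers together at 2292, 3184, 247 and 230. The stellate markers summed to 4938, 634, 677 and 443. The 8 monocyte markers together were at 14669, 21603, 21826 and 26097, most of it Lyz2, which overlapped between the groups (11540, 18667, 13349 and 16368), as did S100a4, while the other 6 were lower in both corn oil libraries. The corn oil cells thus held less of 6 of the 8 monocyte genes and more of the Kupffer and, in corn oil 1, the stellate genes, and the part of this in the difference was not tested. No member was called in either set without CCl4 1 or without CCl4 2, when no gene at all was called; without corn oil 1 there were 6 S-phase and 4 mitotic calls and without corn oil 2 there were 11 and 6.

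The thinned share with at least 3 mitotic UMIs was 4.65%, 13%, 0.110% and 0.297% in the monocyte gate (14.0%, 17.4%, 0.988% and 1.48% unthinned) and that for S phase was 6.98%, 13%, 1.43% and 1.41% (39.5%, 30.4%, 15.6% and 11.1% unthinned). The thinned CCl4 values for S phase were within the range of the plasmacytoid dendritic cells. Of the other lists, 12 of 23 tested mitotic genes were lower, led by Pbk (-5.96), Nuf2 (-4.73) and Ttk (-4.30), 4 of 17 replication genes were lower, led by Tk1 (-4.61), and Stmn1 was lower (-3.54).

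**Figure D4:**
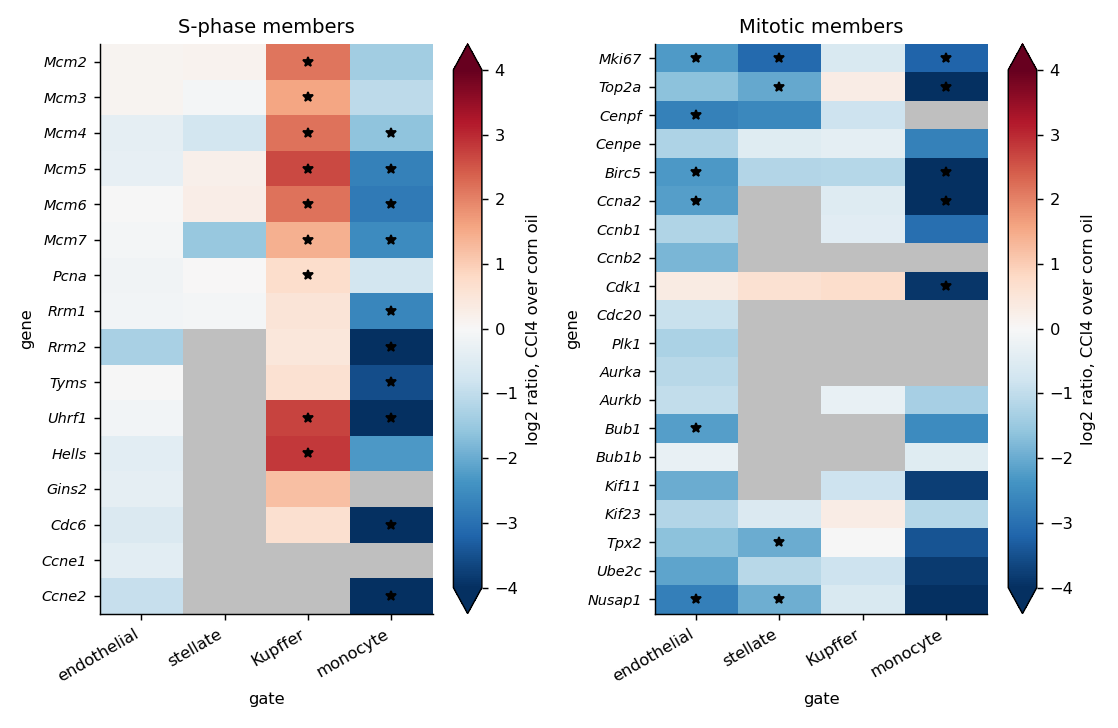
Fitted log2 ratio of CCl4 over corn oil for each S-phase member (left) and mitotic member (right) in the 4 gates, with stars for calls at an adjusted p under 0.05 and grey for members under the filter on low counts. The stars of S phase lie in the Kupffer column (9, higher) and the monocyte column (10, lower), and those of mitosis in the endothelial (6), stellate (4) and monocyte (5) columns, all lower.

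**Figure D5:**
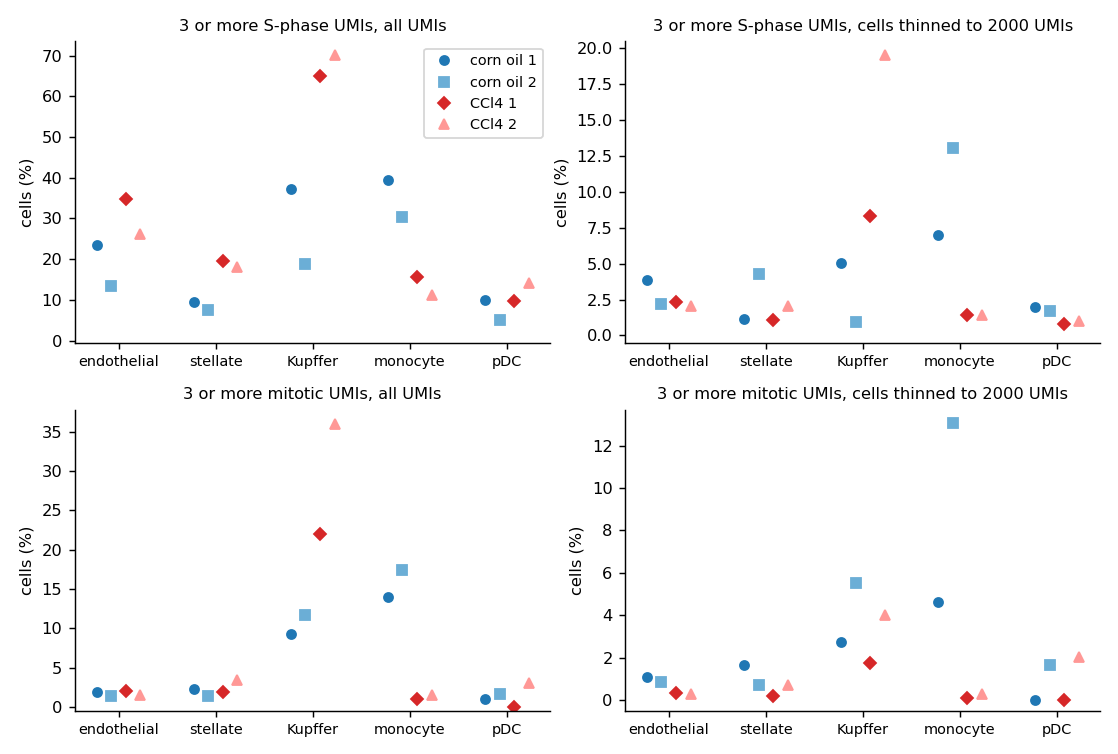
Percent of cells with at least 3 S-phase or mitotic UMIs in each gate and in plasmacytoid dendritic cells (pDC), before and after thinning each cell to 2000 UMIs, 1 point per library on linear axes. In Kupffer cells the S-phase share stays higher in CCl4 after thinning (8.33% and 19.6% against 5.07% and 0.917%) and the mitotic share does not.

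The gates were then compared with each other in 1 model with a term for each mouse, over 12629 genes and with all 36 members tested. These contrasts share the endothelial or Kupffer sums, so they are not independent of one another. The difference of the CCl4 effect between Kupffer and endothelial cells was called higher for 7 members, all of S phase, beside 0.966% of all genes. Hells led with a log2 difference of 3.27 (SE 0.59, adjusted p = 0.0174), then Mcm5 with 2.99 (SE 0.52, adjusted p = 0.0151) and Uhrf1 with 2.77 (SE 0.57, adjusted p = 0.0292), and Mcm2, Mcm3, Mcm4 and Mcm6 were the others, from 1.5 to 2.58. Over the mitotic members the median difference was 1.42, with 19 of 20 positive and 5 at an unadjusted p under 0.05 (edgeR). The median was 1.61 over the S-phase members and -0.01 over all genes. No mitotic member was called in this difference, which does not show that the mitotic members moved alike in the 2 gates. All 7 calls were thus of S phase. The count was 1 without CCl4 1, 0 without CCl4 2 and 4 without either corn oil library.

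In corn oil, Kupffer cells were higher than endothelial cells in 5 members (21.9% of all genes) and lower in 3 (25.6%). The higher ones were led by Kif23, a motor of the central spindle (2.84, adjusted p = 1.88e-05), Cdc6 (2.31, adjusted p = 0.000656) and Aurkb, the kinase of the passenger complex (1.96, adjusted p = 0.00113). The lower ones were helicase subunits, Mcm3 (-1.19, adjusted p = 0.000787), Mcm4 (-1.01, adjusted p = 0.0103) and Mcm6 (-0.89, adjusted p = 0.0224). In CCl4, Kupffer cells were higher in 25 members, 12 of S phase and 13 of mitosis, and lower in 0, beside 26.3% of all genes called higher. Kif23 (4.35, adjusted p = 4.97e-07), Cdc6 (3.57, adjusted p = 8.11e-06) and Gins2, of the helicase complex (3.21, adjusted p = 0.000797), led. This count was 10 without CCl4 2 and 24 or 25 without any other library. In corn oil the counts in both directions were under the shares of all genes, so they mark nothing particular to the members. With cells of several gates counted in each, Mcm4 (-0.24) and Mcm6 (-0.33) were not called in corn oil.

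Kif23 had the largest Kupffer to endothelial ratio of the mitotic members in corn oil and in CCl4. It was at 33.3, 50.1, 41.9 and 65.9 CPM in Kupffer cells against 2.03 to 6.09 in endothelial cells. Its Kupffer level alone did not set it apart, since Mki67 was at 37.8, 56.0, 15.7 and 49.2 there.

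Stellate against endothelial cells gave few calls. In corn oil 1 member was higher, Mcm7 (1.26), and 2 were lower, Mcm3 (-1.89) and Pcna (-0.67), beside 16.2% and 19.8% of all genes. In CCl4, 7 were higher, led by Ccne1 (2.56), Bub1 (2.21) and Nusap1 (2.16), and Mcm3 was lower (-1.94), beside 19.7% and 22.5%. With gates set per 5000 UMIs, Bub1 and Nusap1 were at -1.36 and -1.08 instead. The difference of the CCl4 effect was called for 0 members by edgeR (1 at an unadjusted p under 0.05, of S phase) and by DESeq2, beside 0.942% of all genes. So the mitotic response was not shown to differ between stellate and endothelial cells. In corn oil the calls were 5 without either CCl4 library and 2 without corn oil 2, and in CCl4 they were 5 without CCl4 1 and 2 without CCl4 2.

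The monocyte gate exceeded endothelial cells in 17 members in corn oil, beside 19.5% of all genes. They were 12 of S phase and 5 of mitosis, led by Rrm2 (4.18), Cdc6 (4.01) and Ccne1 (3.65). The corn oil sums of the monocyte gate came from 43 and 23 cells. In CCl4, Bub1 (1.88) and Aurkb (1.75) were higher, beside 26.7%, and 7 members were lower, led by Cdk1 (-3.19), Uhrf1 (-1.60) and Mcm3 (-1.43), beside 29.1%. The difference of the CCl4 effect was lower in 11 members, beside 6.66%, led by Rrm2 (-4.91, adjusted p = 0.00395), Cdc6 (-4.35, adjusted p = 0.0022) and Cdk1 (-4.03, adjusted p = 0.000199). Without corn oil 1, Ccne1 was at -5.85 in the corn oil contrast. The corn oil count was 9 without corn oil 1 and 7 without corn oil 2, and that of the difference was 7 without CCl4 1 or without corn oil 1.

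The contrast of the monocyte and Kupffer gates rested in corn oil on 43 and 23 monocyte-gate cells. These held Kupffer markers at 2292 and 3184 CPM, against 247 and 230 in the CCl4 cells of that gate. In corn oil, monocyte-gate cells were above Kupffer cells in 12 members (12.2% of all genes), led by Rrm2 (3.71), Ccne2 (3.46) and Tyms (2.58). They were below Kupffer cells in 1 member (11.3%), Kif23 (-2.24). In CCl4 the order was the opposite for many members: 25 were lower in monocyte-gate than in Kupffer cells, 15 of S phase and 10 of mitosis, beside 17.1% of all genes, led by Uhrf1 (-4.20), Cdk1 (-3.98) and Cdc6 (-3.91). The difference of the CCl4 effect was lower in 21 members (15 and 6), beside 6.87%, led by Uhrf1 (-6.74), Rrm2 (-6.54) and Ccne1 (-5.79). Ccne1 rested on 14, 0, 6 and 1 UMIs in the monocyte gate, and without corn oil 1 its difference was 4.33. The calls in corn oil were 5 without either corn oil library, those in CCl4 were 16 without CCl4 2, and those of the difference were 14 to 18 when any 1 library was left out.

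Ranked by mean level, the monocyte gate was highest in corn oil for 15 of 16 S-phase members and 11 of 20 mitotic members, and stellate cells led 5 and Kupffer cells 4 of the other mitotic ones. In CCl4, Kupffer cells were highest for 13 S-phase and 14 mitotic members, stellate cells for 3 and 5, and endothelial cells for 1 mitotic member. These are orders of means, and neighbours in them were tested only in the contrasts above.

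Cells that passed more than 1 gate entered none of these tests. Cells with endothelial and Kupffer markers numbered 274, 465, 175 and 91, with 20075.5, 18248, 22496 and 20866 median UMIs. Their S-phase sum was 313, 282, 512 and 642 CPM and their mitotic sum 140, 252, 136 and 235. Cells with endothelial and stellate markers (198, 223, 93 and 31) had S-phase sums of 331, 253, 264 and 267 and mitotic sums of 249, 263, 48.0 and 45.8. Thus the S-phase sums of the first group were higher in CCl4 without overlap and the mitotic sums of the second were lower without overlap. Cells with stellate and Kupffer markers (32, 36, 32 and 6) did not follow, with overlapping S-phase sums of 334, 306, 534 and 277 and mitotic sums of 110, 957, 208 and 89.7. Cells with endothelial and monocyte markers (8, 12, 152 and 115) had S-phase sums of 658, 273, 247 and 241 and mitotic sums of 2802, 57.1, 53.3 and 40.3, lower in CCl4 without overlap but with the corn oil libraries far apart. Cells with stellate and monocyte markers (3, 1, 38 and 26) had S-phase sums of 1464, 415, 160 and 242 and mitotic sums of 5908, 104, 25.1 and 31.0. Whether such cells are doublets or attached cells was not tested.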

How the data were processed

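Single-cell RNA-seq of liver nonparenchymal cells from 4 mice, 2 given corn oil and 2 given CCl4, was analysed from UMI counts per cell and gene that the authors deposited. Per the file headers and the submitters' processing notes, the counts were made with the BD WTA Rhapsody Analysis Pipeline 1.9.1 on GRCm38 with GENCODE vM19; the aligner, the use of strand and any doublet step are not given in the sources used here. For 14 of the 36 members another gene overlaps in the annotation, for 12 of them on the other strand.

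Cells were kept from 200 genes upward with no more than 25% mitochondrial UMIs, gated by marker UMIs, and their counts were summed per gate and library. Sums were tested with edgeR 4.0.16 (R 4.3.3; TMM, filterByExpr, quasi-likelihood test, Benjamini-Hochberg adjustment over all genes tested, threshold 0.05), first within each gate and then over all 16 sums with terms for mouse, gate and gate by treatment. Doublets were scored with Scrublet (scanpy 1.11.5) and left out only as an alternative. For shares of cells, each cell was thinned to 2000 UMIs. The tests were checked on simulated counts. Tables and figures were made in Python 3.11.15 (pandas 2.3.3, numpy 2.4.6, scipy 1.17.1, matplotlib 3.10.9), and coordinates are from the GRCm38 annotation.

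The members and all gene lists were chosen with earlier results of these data known. All 36 members were counted. By rule, values were given for called members of each gate, at most 5 with the highest and 5 with the lowest log2 ratio. They were also given for Mki67, Top2a, Mcm5 and Pcna in every gate and for the 3 largest called differences per direction between gates. Of each other cycle list, at most 3 called genes per direction were given. Some values fall outside this rule, among them those of Mcm2, Mcm3, Mcm7, Rrm1 and Rrm2 and the levels of Kif23 in Kupffer cells. Those of Bub1, Cdk1 and Bub1b in endothelial cells do too. Alternatives were DESeq2 1.42.0, no TMM, no low-count filter, a replicate block, cells of several gates counted in each, doubled gate thresholds, a 15% mitochondrial limit, doublets left out and each library left out, and, chosen after seeing the data, gates per 5000 UMIs and no Ptprc-positive endothelial or stellate cells.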

Additional observations from a re-analysis of the deposited data

Results flagged for a closer look

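The effect of CCl4 differed between Kupffer and endothelial cells for 7 members, tested as an interaction of gate and treatment over all genes, beside 0.966% of all genes called higher. Hells (3.27), Mcm5 (2.99) and Uhrf1 (2.77) had the largest differences on the log2 scale, higher in Kupffer cells. Hells, Mcm5 and Uhrf1 lost the call without CCl4 1 (log2 differences of 3.717, 3.257 and 3.427) and without CCl4 2 (2.698, 2.649 and 1.947). They also lost it with cells of several gates counted in each (2.064, 1.978 and 1.847). Hells and Uhrf1 lost it without corn oil 1 (2.719 and 2.535), and Uhrf1 without corn oil 2 (2.918). Uhrf1 lost it too with doubled gate thresholds (2.555) and with gates set per 5000 UMIs (2.372). Of 13 alternatives, the call held in 9 for Hells, 10 for Mcm5 and 6 for Uhrf1.

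Between the monocyte gate and endothelial cells the effect differed for 11 members, beside 6.66% of all genes called lower, with Rrm2 (-4.91), Cdc6 (-4.35) and Cdk1 (-4.03) the lowest. Between the monocyte gate and Kupffer cells it differed for 21 members, beside 6.87%, with Uhrf1 (-6.74), Rrm2 (-6.54) and Ccne1 (-5.79) the lowest. Ccne1 turned to 4.33 without corn oil 1. Both counts use the 43 and 23 corn oil cells of the monocyte gate.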

How the results depend on the processing

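The correlation of same-numbered deviations was 0.08 in endothelial, -0.0024 in stellate, 0.093 in Kupffer and 0.168 in monocyte-gate sums. With so few libraries per group, these values cannot tell whether the replicate numbers pair mice. With the replicate block, 13 mitotic and 1 S-phase members and 2051 genes were called in endothelial cells and 1 mitotic member in Kupffer cells.

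DESeq2 called 12 mitotic and 1 S-phase members and 1466 genes in endothelial cells, 2 mitotic members and 609 genes in stellate cells, 873 genes in Kupffer cells, 9 mitotic members and 910 genes in the monocyte gate, and 5 members between stellate and endothelial cells in corn oil. With no filter on low counts the endothelial calls were 15 mitotic, 1 S-phase and 2302 genes, the stellate ones 1 S-phase and 1577 genes, the Kupffer ones 2 mitotic and 2321 genes, and the monocyte ones 11 mitotic and 2061 genes. Between stellate and endothelial cells they were then 10 in corn oil and 13 in CCl4, and 17 for the difference of the CCl4 effect between Kupffer and endothelial cells.

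With cells of several gates counted in each, calls were 12 mitotic in endothelial, 9 mitotic, 1 S-phase and 2772 genes in stellate and 11 mitotic in the monocyte gate. Between gates they were 1 and 1 for stellate against endothelial in corn oil and CCl4, 4 for Kupffer against endothelial in corn oil and 2 for the difference of their effects, 28 and 18 for monocyte against endothelial in corn oil and in effect, and 23 for monocyte against Kupffer in corn oil. Sums of S phase then had log2 ratios of -0.0077 (stellate) and -1.58 (monocyte), and Pcna, stellate against endothelial in corn oil, turned to 0.0074.

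Gates per 5000 UMIs, chosen after seeing the data, called 0 mitotic members in stellate cells, 2 between stellate and endothelial cells in CCl4 (Bub1 -1.36 and Nusap1 -1.08, reversed), 6 and 7 for monocyte against endothelial in corn oil and in effect, and 4 for monocyte against Kupffer in corn oil. The sums were then -0.28 (S phase) and -2.77 (mitosis) in stellate and -1.62 (S phase) in monocyte-gate cells. Leaving out Ptprc-positive cells, also chosen after seeing the data, gave 1 endothelial S-phase call, 2 stellate mitotic calls and a stellate S-phase sum of -0.35. Doubled gate thresholds gave a stellate S-phase sum of -0.35, 8 mitotic calls in the monocyte gate and 4 calls between stellate and endothelial cells in CCl4. The stellate S-phase sum was -0.30 with at most 15% mitochondrial UMIs and -0.019 with doublets left out, which also left 2 stellate mitotic calls.

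Leaving out 1 library at a time gave these ranges of calls. Genes numbered 183 to 894 in endothelial, 107 to 1345 in stellate, 585 to 1464 in Kupffer and 0 to 1658 in monocyte-gate sums. S-phase members numbered 0 to 1 in stellate, 4 to 9 in Kupffer and 0 to 11 in monocyte-gate sums, and mitotic members 0 to 7, 0 to 2 and 0 to 6. Against endothelial cells, stellate calls were 2 to 5 in corn oil and 2 to 10 in CCl4, Kupffer calls 10 to 25 in CCl4 and 0 to 4 in effect, and monocyte calls 7 to 17 in corn oil and 7 to 9 in effect. Monocyte calls against Kupffer cells were 5 to 11 in corn oil and 16 to 25 in CCl4. Without corn oil 1, Ccne1 turned to -5.85 (monocyte against endothelial, corn oil) and 4.33 (monocyte against Kupffer, effect); its ranges were -5.85 to 4.17 and -7.96 to 4.33.

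Thinning to 2000 UMIs turned the CCl4 minus corn oil share of cells to -0.86 (endothelial, S phase), -1.10 (stellate, S phase) and -1.26 (Kupffer, mitosis) percentage points, and also changed the sign of endothelial mitosis (0.19 to -0.65) and stellate mitosis (0.90 to -0.74), whose groups overlapped before thinning. The causes of these changes were not tested. Of all alternatives for the counts and sums, 309 stayed within 1.5 times the count or within the spread of the sum and 95 did not. That spread was the root of both group variances added together, on the log2 scale for sums and in percentage points for shares. Of those for named genes, 824 were counted as unchanged, 107 lost the call, 13 gained one and 5 reversed. A gene called in neither fit was counted as unchanged even where its sign changed, as for Mcm5 in endothelial cells (-0.71 to 0.21 over the alternatives). Of those for shares, 19 stayed within the spread, 10 moved and 3 reversed. With 2 mice per group, small differences were not detectable, and the stellate and monocyte-gate values rest on few cells.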

Other observations

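The plasmacytoid dendritic cells, used above as a background for shares, had S-phase sums of 251, 243, 235 and 293 CPM in the corn oil and then the CCl4 libraries. Their mitotic sums were 50.2, 693, 22.0 and 123. The S-phase sums of corn oil Kupffer cells (282 and 199) and of stellate cells (233, 229, 213 and 214) lay within or below the S-phase range of these cells. Endothelial S-phase sums (341, 269, 293 and 290) lay within or above it, and those of CCl4 Kupffer cells (500 and 851) above it. Cells that passed 3 or more gates numbered 115, 146, 59 and 14 and had S-phase sums of 258, 315, 459 and 583. The mitotic sum of the plasmacytoid dendritic cells in corn oil 2 came mostly from 1 cell with 142 of 148 mitotic UMIs and T and NK cell markers at 29951 CPM.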
